A study of Mus musculus with 3 samples.

Results

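The islet hormone genes of the mouse are described here by their H3K36me3 signal in the fetal pancreas. The 8 genes are Ins1, Ins2, Gcg, Sst, Ppy, Pyy, Ghrl and Iapp, chosen by Ensembl identifier, and all 8 were found among the 24318 rows that carry an identifier in the deposited files. H3K36me3 was measured by CUT&Tag, in which an antibody guides a transposase that tags the DNA beside the mark. The cells were pancreatic epithelial cells of wild-type C57BL/6 embryos, labelled by the surface protein EpCAM and sorted by flow cytometry. The labels give 1 library for each of 3 embryonic days (E11.5, E13.5 and E15.5), and the design text alone gives a slightly different middle day. The sort was for the epithelium as a whole, in which hormone cells are a part of unstated size. How fully it kept hormone cells at each stage is unknown. No library without the antibody was analysed here, so the background level is unknown.

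The product of each hormone gene is known as the secretion of a cell type of the islet. Insulin, encoded in rodents by Ins2 and its retroposed copy Ins1, comes from beta cells, as does most of the amyloid polypeptide encoded by Iapp. Glucagon (Gcg) comes from alpha cells, somatostatin (Sst) from delta cells, pancreatic polypeptide (Ppy) from PP cells and ghrelin (Ghrl) from epsilon cells, and peptide YY (Pyy) is made early in fetal islets. Endocrine cells arise from the pancreatic epithelium during the stages sampled. H3K36me3 is written over the bodies of transcribed genes by SETD2, which travels with elongating RNA polymerase II, so a body that is strongly transcribed in many cells usually carries it. In a bulk library, fewer cells that carry the mark and less mark per cell cannot be told apart.

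The files give 3 values per gene, headed PR, GB and SE, and the headers do not spell these out. Each value behaved as a mean signal per position, so values can be set side by side between genes, and the scale is that of the deposited files. Multiplied by 6000 for PR and 12000 for SE, values became whole multiples of 1 smallest increment per library, called a step here, of 0.16188 at E11.5, 0.16743 at E13.5, then 0.16292 at E15.5. A step behaves like a position covered once by a read, which no source states, and most sums under 1000 steps were even (92.3 to 96.7%). The number of reads behind a value is unknown. The GB value did the same when multiplied by the length of a gene. The length recovered in this way equalled the RefSeq gene length for 5 of the 8 genes: Ins2 (1071 positions), Gcg (9124), Ppy (1389), Pyy (1157) and Ghrl (3793). It was 5395 for Iapp against 5396 in RefSeq, 713 for Ins1 against 719, and 1264 for Sst against 1770. From these lengths GB is read here as the gene body.

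The hormone genes are short, and this shapes what each column holds. Over identified rows with recovered bodies of 500 to 3000 positions, the GB sum did not exceed the PR sum in 98.7% at E11.5, 98.9% at E13.5, then 99.2% at E15.5 (1562 rows). For bodies of 3000 to 6000 positions the share was 66.0, 67.6 and 76.8% in the same order (2254 rows). The GB sum stayed within the SE sum in 99.4, 99.6 and 99.6% of 3816 rows with bodies of 500 to 6000 positions. Windows of 3000 and 6000 positions either side of the gene start would hold every body shorter than that. They are assumed here, although where the windows lie is not stated. The bodies of Ins1, Ins2, Sst, Ppy and Pyy then lie inside both PR and SE, and those of Ghrl and Iapp inside SE. The columns of a short gene therefore share signal and are not separate measurements.

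The RefSeq annotation of GRCm38.p6, the assembly also called mm10, places Ins1 (ENSMUSG00000035804) at chr19:52264297-52265015 and Ins2 (ENSMUSG00000000215) at chr7:142678656-142679726. Gcg (ENSMUSG00000000394) lies at chr2:62474530-62483653 and Sst (ENSMUSG00000004366) at chr16:23889573-23891342. Ppy (ENSMUSG00000017316, chr11:102099931-102101319) and Pyy (ENSMUSG00000017311, chr11:102106676-102107832) are neighbours whose starts are 6513 positions apart. Ghrl (ENSMUSG00000064177) lies at chr6:113716119-113719911 and Iapp (ENSMUSG00000041681) at chr6:142298425-142303820. The whole of Iapp lies within Slco1a5, an organic anion transporter gene of 88755 positions, so signal over Iapp cannot be assigned to either gene alone.

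The sequence around the start is shown for 4 of the genes, because they stand for the patterns described below: Ghrl higher at each later stage, Gcg and Sst with gene-body signal mainly at E13.5, and Ins1 with it at E11.5 alone. The 300 bases run 5′ to 3′ from 250 before to 50 after the start of a RefSeq transcript and were taken from RefSeq tables of GRCm38.p6, which matched 7 of the 8 genes by symbol. They cover chr6:113719862-113720161 for Ghrl, chr2:62483604-62483903 for Gcg and chr16:23890795-23891094 for Sst, all on the minus strand, and chr19:52264047-52264346 for Ins1 on the plus strand. The Sst window lies wholly within the gene interval given above, so the transcript start used there is not the start of that interval. Capitals mark 3 motifs searched on both strands: TATAA, the core of a TATA box, GCCATCTG, an E box of rodent insulin promoters, and TGACGTCA, the cAMP response element. No match overlapped another.
Ghrl: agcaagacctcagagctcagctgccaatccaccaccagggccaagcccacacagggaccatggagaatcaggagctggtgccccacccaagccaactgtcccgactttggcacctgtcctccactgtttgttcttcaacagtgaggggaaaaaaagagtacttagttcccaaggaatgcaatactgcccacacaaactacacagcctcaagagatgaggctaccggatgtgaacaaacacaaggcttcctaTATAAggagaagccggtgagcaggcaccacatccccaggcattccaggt
Gcg: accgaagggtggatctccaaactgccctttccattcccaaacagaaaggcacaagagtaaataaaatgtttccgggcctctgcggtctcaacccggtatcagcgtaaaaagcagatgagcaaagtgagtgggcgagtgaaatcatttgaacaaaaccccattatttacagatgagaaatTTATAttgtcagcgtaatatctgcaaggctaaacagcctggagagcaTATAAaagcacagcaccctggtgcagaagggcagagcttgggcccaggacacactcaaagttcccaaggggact
Sst: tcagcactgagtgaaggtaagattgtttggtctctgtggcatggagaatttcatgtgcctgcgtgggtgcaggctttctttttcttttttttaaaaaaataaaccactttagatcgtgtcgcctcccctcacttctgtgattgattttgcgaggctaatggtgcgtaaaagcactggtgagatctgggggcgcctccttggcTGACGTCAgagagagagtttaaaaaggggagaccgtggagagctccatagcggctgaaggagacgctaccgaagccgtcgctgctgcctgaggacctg
Ins1: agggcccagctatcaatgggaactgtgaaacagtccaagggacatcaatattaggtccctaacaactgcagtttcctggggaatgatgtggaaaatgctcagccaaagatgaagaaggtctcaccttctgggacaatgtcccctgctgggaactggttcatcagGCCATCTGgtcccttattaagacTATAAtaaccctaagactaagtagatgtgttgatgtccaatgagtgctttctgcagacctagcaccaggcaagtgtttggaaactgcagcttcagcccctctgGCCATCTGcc

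The Ghrl window holds 1 match to TATAA, which lies just after the transcript start. The Gcg window holds 2, both before the start and 1 of them on the other strand. The Ins1 window holds 2 matches to GCCATCTG, 1 before the start and 1 after it, and 1 to TATAA, before the start. The Sst window holds 1 match to TGACGTCA, the site through which CREB acts on this gene in the rat, and 0 to TATAA. Of 32851 promoter windows of the same length in the table, 24.9% hold TATAA, 1.32% hold GCCATCTG and 1.79% hold TGACGTCA on either strand. A match describes the letters only and is not a measured binding site. Matches were sought anywhere in the window, so a match to TATAA need not be a TATA box.

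The median hormone gene lay low among all rows in GB at E11.5 (percentile 16.7), near the middle at E13.5 (47.7) and low again at E15.5 (17.0). Single genes were spread from the bottom to the top of the rows at each stage. The median GB of the 8 genes was 0.000369 at E11.5, 0.00405 at E13.5, then 0.000125 at E15.5, against medians over all identified rows of 0.00432, 0.00421 and 0.00371. GB was above the median of all rows in 1, 4 and 1 of the 8 genes in stage order. It was 0 in 2, 2 and 4 of them, beside 12.9, 14.8 and 20.3% of all rows, and values at 0 share a tied rank. The median PR of the 8 genes was 0.00240, 0.00480 and 0.00284, against 0.00394, 0.00368 and 0.00559 over all rows. Median SE was 0.00540, 0.00716 and 0.00434, against 0.00448, 0.00416 and 0.00592. In every column the median of the group was highest at E13.5, and at E15.5 it was below the median of all rows. The plot of deposited values by gene shows that this is no shared course, with Ghrl alone higher at each later stage in every column as deposited.

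**Figure D1:**
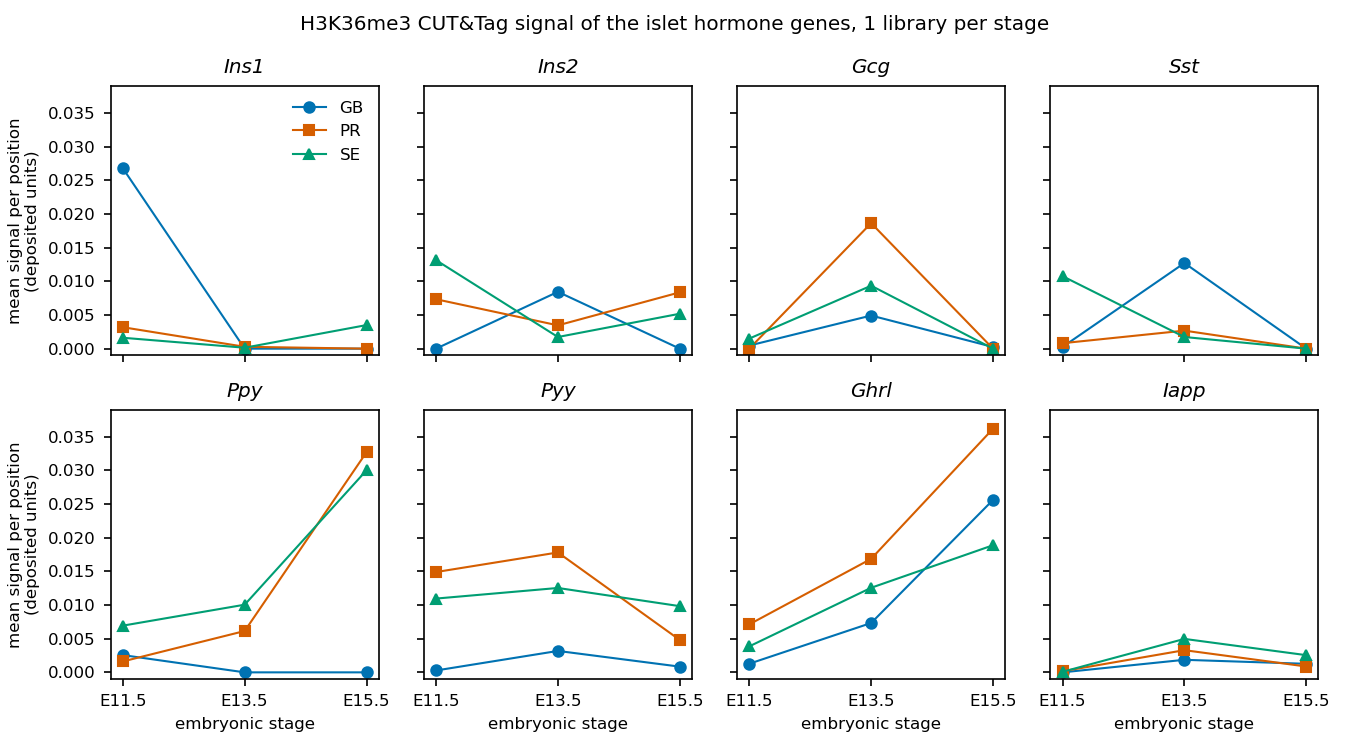
Mean H3K36me3 signal per position (deposited units) of each hormone gene against embryonic stage, with 1 library per stage and no error bars. Blue circles are GB, orange squares PR and green triangles SE. PR of Ghrl and Ppy reaches 0.0362 and 0.0327 at E15.5, while GB of Ppy is 0 there and GB of Ins1 is high at E11.5 only.

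Ghrl, the ghrelin gene, was highest at E15.5 in all 3 columns as deposited. Its GB was 0.00128 at E11.5, 0.00733 at E13.5, then 0.0256 at E15.5. Its PR was 0.00712, 0.0169 and 0.0362, and its SE 0.00386, 0.0126 and 0.0189 in the same order. Each column was higher at each later stage, a profile found in all 3 columns of 4.67% of identified rows and in 1 of the 8 hormone genes, although quantile normalization turned its last step in PR and SE (log2 ratios of -0.39 and -0.49). The GB percentile of Ghrl among identified rows was 22.4, 75.4 and 93.0 in stage order. The PR percentile was 69.3, 96.6 and 92.1, and the SE percentile 43.8, 94.4 and 85.6. By rank, then, PR and SE of Ghrl were highest at E13.5, and only GB also gained rank at E15.5. The body held 30 of 286 SE steps at E11.5 (10.5%), 166 of 900 at E13.5 (18.4%) and 596 of 1390 at E15.5 (42.9%), and it makes up 31.6% of SE positions. At E15.5, 95.8% of the SE steps of Ghrl lay within PR.

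Ppy, the pancreatic polypeptide gene, was higher at each later stage in PR and SE but not in its body. PR was 0.00162 at E11.5, 0.00614 at E13.5, then 0.0327 at E15.5, at percentiles 31.7, 67.1 and 90.4. SE was 0.00693, 0.0100 and 0.0300, at percentiles 70.7, 88.7 and 95.1, the highest SE of any hormone gene at E15.5. GB was 0.00256 at E11.5 and was listed at 0 at E13.5 and E15.5. The 1204 PR steps at E15.5 thus lay outside a body that makes up 23.2% of PR positions. Of 2441 rows with PR at or above the 90th percentile at E15.5, 6.19% had GB at 0. Windows of 6000 positions either side of the start of Ppy would take in 644 positions of the Pyy body. All of the Pyy body held 22 steps at E13.5, then 6 at E15.5, against 720 and 2210 in SE of Ppy. SE of Ppy would also take in part of the PR window of Pyy, which held 638 steps at E13.5, then 177 at E15.5. How many of those lay in the shared part is unknown, and whether Pyy adds to SE of Ppy was not tested.

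Pyy, the peptide YY gene next to Ppy, was high in PR and SE at E11.5 and E13.5 and low in its body at each stage. PR was 0.0149 at E11.5, 0.0178 at E13.5, then 0.00481 at E15.5, at percentiles 92.6, 97.3 and 47.8. SE was 0.0110, 0.0125 and 0.00983, at percentiles 88.8, 94.4 and 65.7. GB was 0.000277, 0.00318 and 0.000847, at percentiles 15.9, 38.5 and 28.5. The body makes up 19.3% of PR positions and held 0.362, 3.45 and 3.39% of PR steps in stage order. If the windows are centred on the starts, SE of Ppy and SE of Pyy share 5487 positions, while their PR windows share none. At E15.5 relative to E13.5, PR was higher in Ppy and lower in Pyy.

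Gcg, the glucagon gene and the longest of the 8, was high at E13.5 alone. PR was listed at 0 at E11.5, was 0.0186 at E13.5 and was again listed at 0 at E15.5. The E13.5 value stood at percentile 97.7. SE was 0.00150, 0.00935 and 0 in stage order, at percentiles 19.6 and 86.3 for the first 2 stages. At E13.5, 668 of the 670 SE steps lay within PR. GB was 0.000461, 0.00492 and 0.000250, at percentiles 17.5, 57.0 and 23.9. The body sums were 26, 268 and 14 steps. The 14 steps at E15.5 thus lay outside both PR and SE. PR and SE were both at 0 in 11.0% of identified rows at E15.5.

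Sst, the somatostatin gene, was also highest at E13.5 in GB and PR, but not in SE. GB was 0.000253 at E11.5, 0.0127 at E13.5, then 0 at E15.5, at percentiles 15.8 and 91.7 for the first 2 stages. PR was 0.000810, 0.00268 and 0, and SE 0.0108, 0.00173 and 0. At E13.5 the body held 96 steps, which were all of the PR steps and 77.4% of the 124 SE steps. At E11.5, 768 of the 798 SE steps lay outside PR, so the SE percentile of 88.2 there does not come from the body, which held 2 steps. Sst was at 0 in all 3 columns at E15.5. The share of identified rows at 0 in all 3 columns was 0.814, 1.21 and 5.95% in stage order.

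The insulin genes showed no common course. GB of Ins1 was 0.0268 at E11.5 and was listed at 0 at E13.5 and E15.5. The E11.5 value stood at percentile 98.3, but it rests on 118 steps over 713 positions. The same 118 steps are all of the PR signal, where PR of 0.00318 stood at percentile 44.8, and nearly all of the 120 SE steps, where SE of 0.00162 stood at percentile 20.9. A short body thus turned a small sum into a high rank. PR of Ins1 was 0.000278 at E13.5, then 0 at E15.5, and SE was 0.000139 and 0.00350. Ins2 had GB of 0 at E11.5, 0.00844 at E13.5, then 0 at E15.5, with 54 steps at E13.5 (percentile 80.6). Its PR was 0.00734, 0.00346 and 0.00836, at percentiles 70.4, 48.0 and 56.5. Its SE was 0.0131, 0.00173 and 0.00519, at percentiles 93.8, 21.6 and 46.9. At E11.5, 702 of the 974 SE steps of Ins2 lay outside PR. How reads that match both insulin genes were placed is not stated, so the split between Ins1 and Ins2 is uncertain.

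Iapp was below the median of all rows in each column at E11.5 and E15.5, and at E13.5 in GB and PR but not in SE. GB was listed at 0 at E11.5 and was 0.00186 at E13.5, then 0.00127 at E15.5. PR was 0.000162, 0.00329 and 0.000868, at percentiles 12.7, 46.6 and 32.9. SE was 0.0000808, 0.00497 and 0.00255, at percentiles 3.71, 58.1 and 34.3. The whole SE window of 12000 positions held 6 steps at E11.5, 356 at E13.5, then 188 at E15.5. In each column as deposited Iapp was highest at E13.5, as were Gcg and Pyy in all 3 columns, a profile of 8.13% of identified rows. By rank, GB of Iapp was higher at E15.5 (percentile 31.5) than at E13.5 (26.1).

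**Figure D2:**
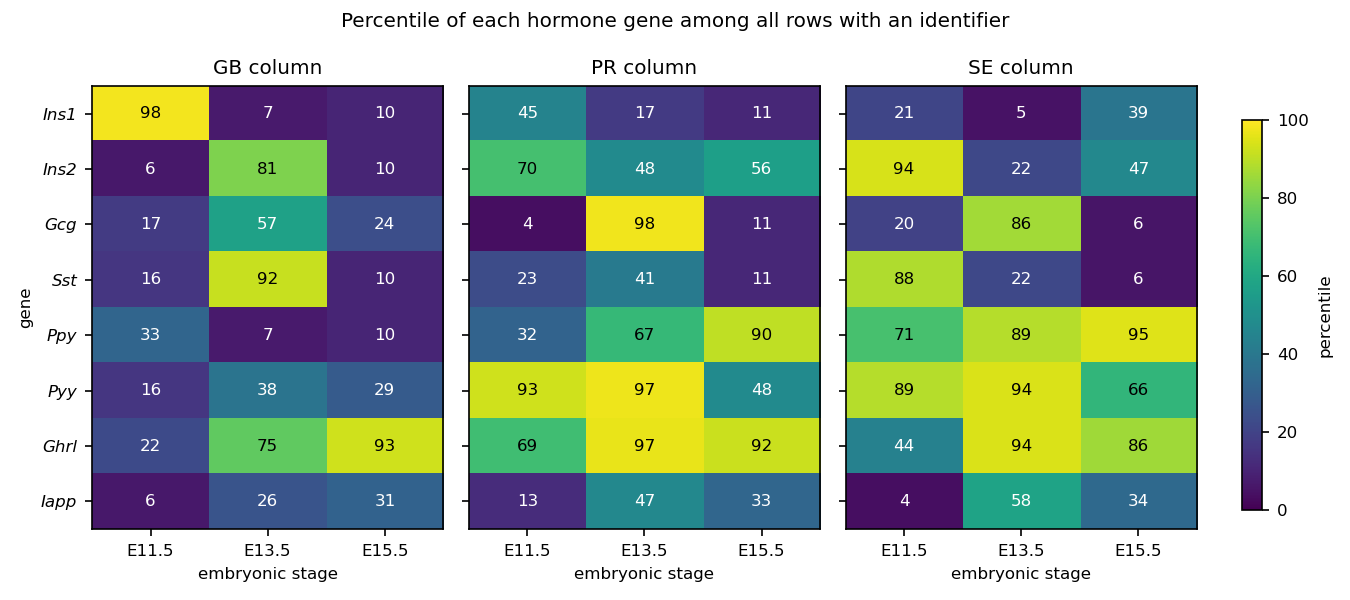
Percentile of each hormone gene among all identified rows of the same library, with genes down the page, stages across each panel and 1 panel per column; ties share their middle rank, so a value listed at 0 shows a percentile above 0. Yellow cells mark high ranks, which for Ins1 at E11.5 are found in GB alone and for Pyy in PR and SE.

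**Figure D3:**
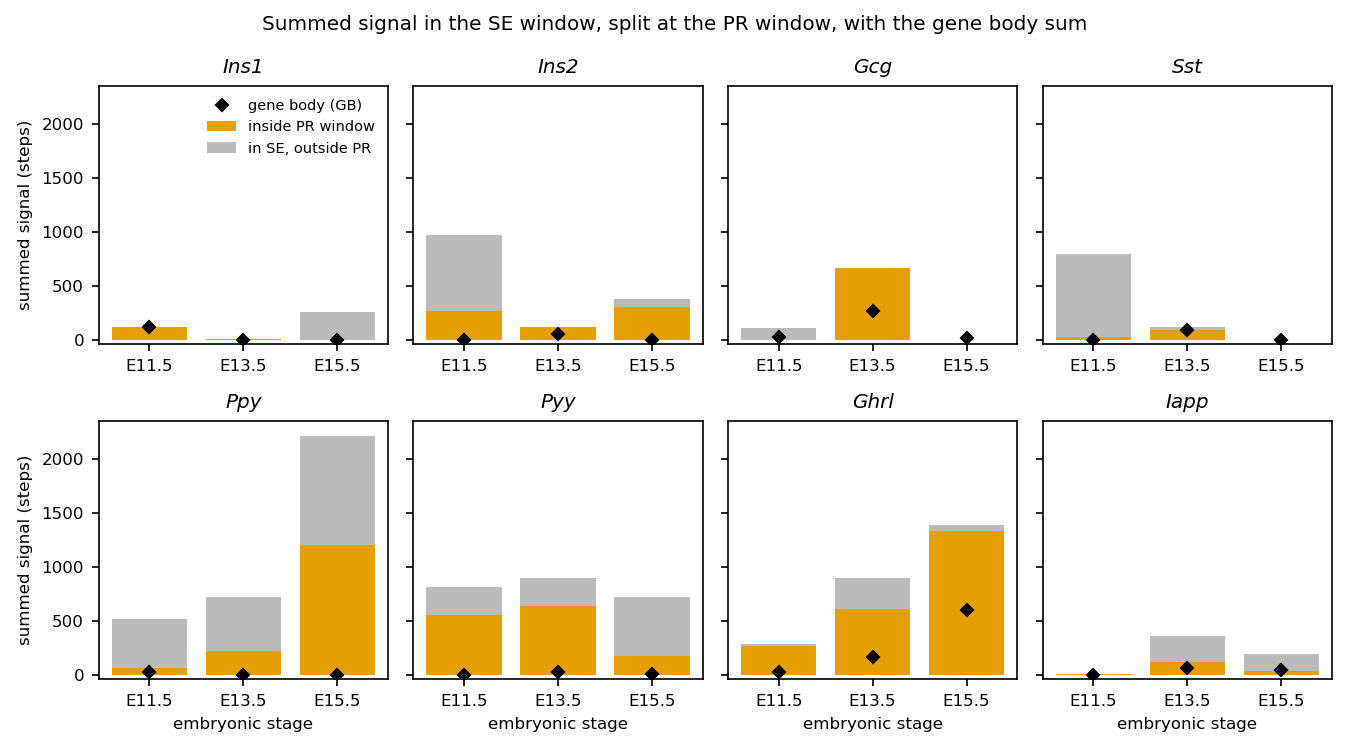
Summed signal of each hormone gene in steps, by stage: orange bars are sums inside the PR window, grey bars the rest of the SE window, and black diamonds the gene-body sum. The body of Gcg reaches beyond SE, with 14 steps at E15.5 where SE is 0. The body sum is 596 steps for Ghrl and 0 for Ppy at E15.5.

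The share of signal that fell in the bodies differed between genes and stages. Bodies held 98.3% of the SE steps of Ins1 at E11.5, 77.4% of those of Sst and 43.5% of those of Ins2 at E13.5, from SE sums of only 120 to 124 steps. For Ghrl at E15.5 the share was 42.9% of a larger sum. It was at most 4.28% for Ppy and 2.45% for Pyy at any stage, although the Ppy body held 36.7% of its 60 PR steps at E11.5. The largest body sums were the 596 steps of Ghrl at E15.5, the 268 of Gcg at E13.5 and the 166 of Ghrl at E13.5. Ins1, Ins2, Sst, Ppy and Pyy had body sums of 0 to 118 steps at any stage, while their SE sums ranged from 0 to 2210 steps. The order of the genes also changed with the stage. PR was highest for Pyy at E11.5 (0.0149), for Gcg at E13.5 (0.0186, with Pyy at 0.0178 and Ghrl at 0.0169) and for Ghrl at E15.5 (0.0362, with Ppy at 0.0327). With 1 library per stage there is no spread to show whether neighbours in these orders differ.

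Stages were then compared on the log2 scale, dividing the later library by the earlier one with 0.001 added to each value, which shrinks the ratios of low values. A gene entered a comparison in a column when its higher library reached the median of that column over identified rows and libraries, 0.00413 for GB, 0.00407 for PR and 0.00460 for SE. A ratio of at least 2-fold either way was counted. These counts are sizes in single libraries with no test, and stage and library cannot be told apart. Genes that entered only through the stage where they were high had to differ to some extent, though not always by 2-fold. The counts are therefore set beside those over all rows and are no support for a change. The 3 comparisons share libraries.

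For E13.5 against E11.5, GB was at least 2-fold higher in 4 hormone genes (Ins2, Gcg, Sst and Ghrl) of 5 that entered, where 17.2% of all rows that entered were. It was lower in 1 (Ins1), where 19.4% of all rows were. PR was higher in 3 of 5 (Gcg, Ppy and Ghrl), beside 28.7% of all rows, and lower in 0, beside 32.8%. SE was higher in 3 of 7 (Gcg, Ghrl and Iapp), beside 19.9%, and lower in 2 (Ins2 and Sst), beside 24.8%. Ins2 and Sst were thus higher in GB and lower in SE. The ratios of Ins2 and Ins1 in GB and of Gcg in PR owe their size to the pseudocount, since 1 value was 0. These calls stayed at least 2-fold with 0.0001 or 0.005 added instead. With 0.005, those of Gcg and Ghrl in GB, Ppy and Ghrl in PR, and Ghrl and Iapp in SE did not. The log2 ratio of Ghrl was 1.87 in GB, 1.14 in PR and 1.48 in SE, at the 90.9th, 73.6th and 88.1st percentile of the ratios of all rows that entered. That of Gcg was 2.02 in GB and 2.05 in SE, at percentiles 91.7 and 94.2. The median log2 ratio of the 8 genes, entered or not, was 1.79 in GB, 1.08 in PR and 0.33 in SE, beside 0.00, -0.05 and -0.05 over all rows.

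For E15.5 against E13.5, GB was at least 2-fold higher in 1 hormone gene of 4 that entered (Ghrl), beside 27.6% of all rows, and lower in 3 (Ins2, Gcg and Sst), beside 22.1%. PR was higher in 3 of 5 (Ins2, Ppy and Ghrl), beside 52.2% of all rows, and lower in 2 (Gcg and Pyy), beside 24.7%. SE was higher in 2 of 6 (Ins2 and Ppy), beside 45.7%, and lower in 1 (Gcg), beside 17.9%. The ratios of Ins2 and Sst in GB and of Gcg in PR and SE owe their size to the pseudocount, since the E15.5 value was 0. These calls stayed at least 2-fold with 0.0001 or 0.005 added instead. With 0.005, those of Gcg in GB, Ins2 and Ghrl in PR, and Ins2 in SE did not. The libraries as a whole differed here, with mean PR over identified rows of 0.0118 at E15.5 against 0.00506 at E13.5, and PR at 0 in 22.1% of rows against 11.9%. Set against that, the PR ratio of Ghrl (log2 1.06) stood at the 48.9th percentile of all rows that entered, and it changed sign, as above, once quantile normalization had given all libraries one distribution. The PR ratio of Ppy (log2 2.24) stood at the 70.9th percentile, and the GB ratio of Ghrl (log2 1.68) at the 83.8th. The PR ratio of Pyy was -1.70, at the 20.2nd percentile. The median log2 ratio of the 8 genes was -0.76 in GB, -0.78 in PR and 0.12 in SE, beside 0.00, 0.37 and 0.33 over all rows.

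For E15.5 against E11.5, GB was at least 2-fold higher in 1 hormone gene of 2 that entered (Ghrl), beside 26.5% of all rows, and lower in 1 (Ins1), beside 22.8%. PR was higher in 2 of 4 (Ppy and Ghrl), beside 50.0% of all rows, and lower in 1 (Pyy), beside 26.0%. SE was higher in 2 of 5 (Ppy and Ghrl), beside 42.7%, and lower in 2 (Ins2 and Sst), beside 19.7%. The log2 ratio of Ghrl was 3.54 in GB, 2.19 in PR and 2.03 in SE, at the 95.4th, 71.6th and 82.0th percentile of all rows that entered. As a ratio of deposited values, GB of Ghrl at E15.5 exceeded the E11.5 value 20.0 times, and PR 5.08 times. The log2 ratio of Ppy was 3.69 in PR and 1.97 in SE, at percentiles 91.7 and 80.6. The ratios of Ins1 in GB and Sst in SE owe their size to the pseudocount, since the later value was 0, and no size is given. These calls stayed at least 2-fold with 0.0001 or 0.005 added instead. With 0.005, that of Ins2 in SE did not.

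**Figure D4:**
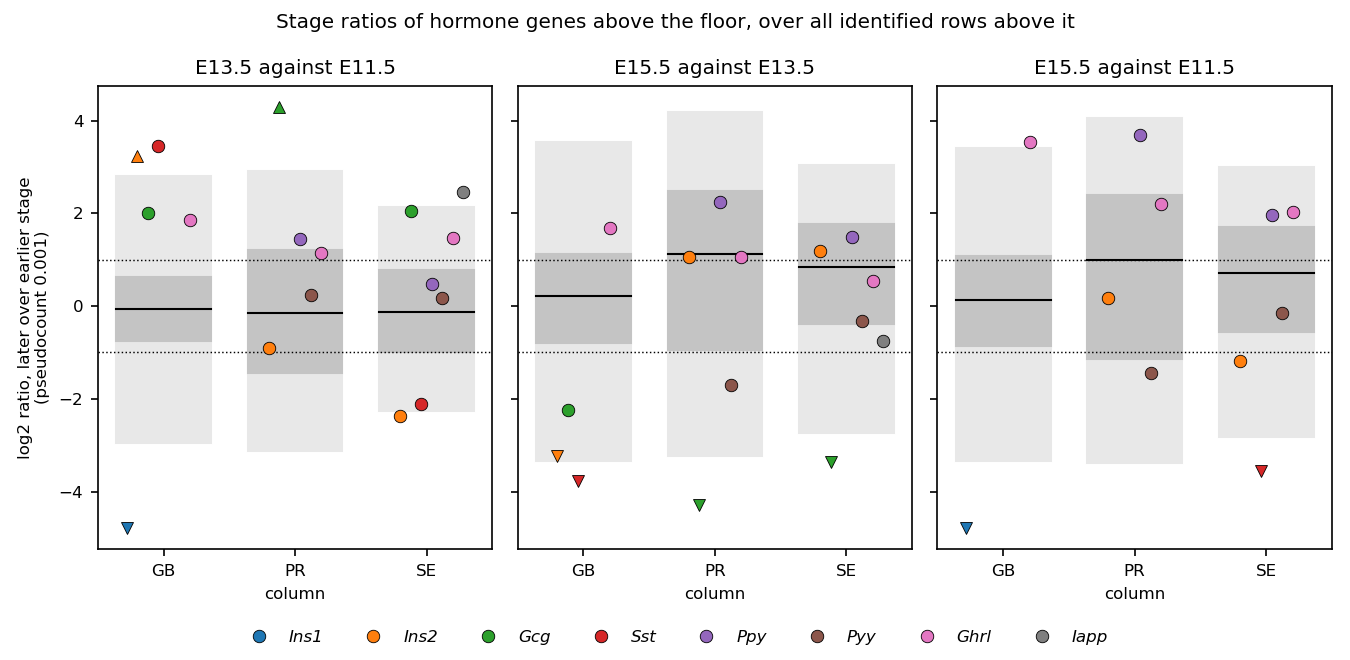
Log2 of the later stage over the earlier one (pseudocount 0.001) for hormone genes that entered each comparison, with 1 panel per comparison and the 3 columns across. Light grey spans the 5th to 95th percentile and dark grey the 25th to 75th of all identified rows that entered, the black line is their median, dotted lines mark 2-fold, and triangles mark genes at 0 in 1 of the libraries. Ghrl lies above the 95th percentile in GB for E15.5 against E11.5, while for E15.5 against E13.5 its PR ratio lies at the median.

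Of PR calls over all rows, 67.9% were higher for E15.5 against E13.5 and 65.8% for E15.5 against E11.5, and both were 50.1% after quantile normalization, which gives all libraries one distribution and so fixes an even split by construction. Of SE calls, 71.9 and 68.4% were higher in the same order, against 49.97 and 50.4% after it. That scaling moved the median log2 PR ratio over all rows for E15.5 against E13.5 to 0.05, where it was 0.37 as deposited, and division by each library's median GB moved it to 0.52. GB of Ghrl stayed higher at the later stage of each pair under both scalings, and so did PR of Ppy.

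By their 9 values (3 columns at 3 stages, as log2 of the value plus 0.001), the nearest pair of hormone genes was Gcg and Iapp at a Euclidean distance of 3.64. Of identified rows, 5.46% were nearer to Gcg than Iapp was, and 10.9% were nearer to Iapp than Gcg was. Ins2 and Pyy were 3.74 apart, with 3.06% of rows nearer to Ins2 and 4.11% nearer to Pyy. Each hormone gene had its nearest row outside the group, at distances of 0.413 for Iapp to 1.62 for Ppy, and these rows have no symbol in the files or the reference table. With 9 values that share windows and 3 libraries, such likeness is a description only.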

How the data were processed

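H3K36me3 CUT&Tag was profiled in 3 libraries, 1 per stage. Bowtie2 2.4.2 and the build mm10 are named in the submitters' processing notes. Filtering, counting, scaling and gene models are not given in the sources used here. Per the file headers, the authors deposited 25493 rows per library with 3 columns of signal. Of these, 1175 rows (4.61%) had no identifier and were left out, and 2 had an empty SE value. Depth in reads is unknown, so no counting interval is given.

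Values were used as deposited (Python 3.11.15, numpy 2.4.6, pandas 2.3.3). Steps were found from the PR sums, and 100.0% of sums under 1000 steps were whole within 0.05 steps. A body length was the smallest at which every value above 0 gave a whole sum. On simulated windows it was recovered in 74.0% with 1 library above 0 (as for Ins1, Ins2 and Ppy), 96.7% with 2 and 98.3% with 3. The simulated sums were all larger than the smallest body sums here, such as the 2 steps of Sst and of Pyy at E11.5. These shares therefore need not hold for Sst, whose recovered length differed from RefSeq, or for Pyy. The rule named all 8 genes, and the row most like each only where its identifier was paired with a symbol, which none was. Members, lists and columns were chosen with earlier results of these data known. The reference table held 0 of the deposited identifiers, so the lists of related genes and of cell type markers were not used, and the sorted cell type was not checked against markers.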

Additional observations from a re-analysis of the deposited data

How the results depend on the processing

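Each alternative left most counts of hormone genes within 1.5 times their value (86 of 108). Counts below are given as changed and then as first reported, and all hold few genes. Brackets give the share of all rows that entered, in the same order. A pseudocount of 0.005 shrinks ratios by construction. With it, E13.5 against E11.5 gave 2 genes higher in GB instead of 4 (9.7 against 17.2%). It gave 1 higher in PR instead of 3 (16.0 against 28.7%) and 1 in SE instead of 3 (7.57 against 19.9%). E15.5 against E13.5 gave 1 higher in PR instead of 3 (42.9 against 52.2%) and 1 in SE instead of 2 (31.6 against 45.7%). E15.5 against E11.5 gave 1 lower in SE instead of 2 (11.7 against 19.7%). With a pseudocount of 0.0001 or a 1.5-fold threshold, PR for E13.5 against E11.5 gave 1 gene lower instead of 0 (35.3 or 41.2 against 32.8%). The 1.5-fold threshold gave 2 lower in SE instead of 1 for E15.5 against E13.5 (22.4 against 17.9%). Without a floor, all 8 genes entered. E13.5 against E11.5 then gave 2 lower in GB instead of 1 (15.6 against 19.4%). In PR it gave 5 higher instead of 3 (25.9 against 28.7%) and 1 lower instead of 0 (28.4 against 32.8%). E15.5 against E13.5 gave 4 lower in PR instead of 2 (26.4 against 24.7%) and 2 lower in SE instead of 1 (23.3 against 17.9%). E15.5 against E11.5 gave 2 higher in GB instead of 1 (18.9 against 26.5%) and 2 lower instead of 1 (20.7 against 22.8%). In PR it gave 2 lower instead of 1 (26.7 against 26.0%). Dividing by the median GB gave 1 lower in SE instead of 2 for E15.5 against E11.5 (17.1 against 19.7%). Quantile normalization gave 1 lower in PR instead of 0 for E13.5 against E11.5 (34.7 against 32.8%). For E15.5 against E13.5 it gave 1 higher in PR instead of 3 (34.5 against 52.2%). In SE it gave 0 higher instead of 2 (27.7 against 45.7%) and 2 lower instead of 1 (27.7 against 17.9%). It also turned the PR log2 ratio of Ghrl to -0.39. Of 288 recomputed ratios of single genes this was the 1 called ratio that changed sign. Another 98 of these ratios moved by over 1.5 times. Some ratios that were not called also changed sign under quantile normalization. Among them, for E15.5 against E13.5, were Ghrl in SE (0.55 to -0.49) and Iapp in GB (-0.34 to 0.36). For E15.5 against E11.5 they included Gcg in GB (-0.23 to 0.72) and Ins2 in PR (0.17 to -0.61). The median of the 72 member percentiles, 38.7, became 39.6 over all rows of the files. Ranking over rows above 0 leaves out the member values at 0, and the median of the remaining 58 became 41.9, where the same 58 had 47.9. All 58 percentiles fell by this ranking, with the largest change at -19.4 points: in GB, Gcg at E15.5 was at 4.43 instead of 23.9, Pyy at E11.5 at 3.42 instead of 15.9, Iapp at E15.5 at 14.0 instead of 31.5 and Ghrl at E11.5 at 10.9 instead of 22.4. Causes beyond the alternatives' own construction were not tested. No paired analysis was possible because only 1 library represents a stage and nothing was tested. Leaving out a library leaves no comparison with its stage.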
